A study of Mus musculus with 6 samples.

Results

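The levels of 8 integrated stress response genes were compared across single-cell libraries of mouse intestinal organoids: Atf4, Ddit3, Atf5, Nupr1, Trib3, Chac1, Asns and Sesn2. They were taken by symbol from the gene table that all 6 libraries share, which lists 55335 genes, and all 8 were found. The organoids were grown from single cells of wild-type C57BL/6 mice aged 8 weeks, and the study's design names 2 mice in duplicate without tying a mouse to a library. Day 4 (96 hours) gave 4 libraries, 1 for each condition: DMSO vehicle, an antagonist of the retinoid X receptor (RXR) at 5 µM, all-trans retinoic acid (atRA) at 10 µM, and medium free of vitamin A. Day 1 (24 hours) gave 2 libraries, both of vehicle organoids. The vehicle, antagonist and retinoic acid were added at day 0 and again at day 3. Up to day 3 the culture medium held Wnt3a-conditioned medium, the ROCK inhibitor Y-27632 and the GSK3B inhibitor CHIR99021, and from day 3 it was plain ENR medium (EGF, Noggin and R-Spondin), so time and medium cannot be told apart between day 1 and day 4. Whether the vitamin A-free organoids also received DMSO is not stated in the sources used here. With 1 library for each day-4 condition, differences among them have no replicate check and no test, and every interval on them covers counting error only.

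The integrated stress response is a signalling pathway in which kinases that sense amino acid shortage, unfolded protein, double-stranded RNA or haem shortage phosphorylate the translation factor eIF2. General protein synthesis then slows while the mRNA of the transcription factor ATF4 is translated more, and ATF4, with partners such as CHOP, switches on genes for amino acid supply, redox balance and, when stress lasts, cell death. Because ATF4 is controlled largely at translation, the level of its mRNA is not a direct measure of pathway activity, which is more often read from its targets. In the intestinal epithelium, Paneth and goblet cells make large amounts of secreted protein and are sensitive to stress of the endoplasmic reticulum.

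The libraries kept 3468 to 5327 cells each after likely doublets were removed, with 47258161 to 62567817 unique molecular identifiers (UMIs, each counting 1 captured mRNA molecule). The median cell held 9968 to 13365.5 UMIs, and 2 to 17 cell barcodes were shared by a pair of libraries. Levels are UMIs summed over the cells of a library and scaled to the library's total UMIs, in the usual unit CPM. Epithelial marker genes were abundant and those of other tissues were not: the summed level of 6 immune markers was at most 2.23 CPM and that of 6 fibroblast markers at most 0.176 CPM. The epithelium itself differed among libraries. The summed level of 8 enterocyte markers was 40650 CPM in vehicle, 4898 CPM with the antagonist and 98389 CPM with retinoic acid. That of 8 markers of regenerating epithelium was 65.3, 7236 and 40.5 CPM in the same order. The median mitochondrial share of UMIs was 3.58% in vehicle, 1.85% with the antagonist and 4.40% with retinoic acid. In vitamin A-free medium the enterocyte and regenerating sums were 26076 and 163 CPM. In the day-1 libraries the enterocyte sums were 5511 and 9883 CPM and the regenerating sums 1350 and 1560 CPM. Among the vehicle, antagonist and retinoic acid libraries these differences ran alongside most member levels below. Day 1 had more of the regenerating markers than day-4 vehicle, but no member was higher there. The part of such differences in the member levels was not tested.

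All 8 genes were highest in the library given the RXR antagonist, and among the day-4 libraries all 8 were lowest with retinoic acid. For Atf4 the antagonist library was not above vehicle or vitamin A-free medium beyond counting error. The distance between highest and lowest library ran from 278-fold for Nupr1 to 1.74-fold for Atf4. Vitamin A-free organoids resembled vehicle in the level of most members, with Nupr1 as the exception by size.

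Atf4 (chr15:80255184-80257541) encodes the central transcription factor of the pathway, and positions here and below are GRCm38 with GENCODE vM21 genes. Its level was 301.6 CPM in vehicle, 304.0 CPM with the RXR antagonist, 175.0 CPM with retinoic acid, 302.9 CPM in vitamin A-free medium, and 186.8 and 185.3 CPM in the day-1 libraries. The vehicle, antagonist and vitamin A-free libraries did not differ beyond counting error, and the retinoic acid and day-1 libraries lay below them. Ddit3 (chr10:127290774-127296288) encodes CHOP, a transcription factor that ATF4 induces and that is tied to cell death under lasting stress. Its level was 48.2 CPM in vehicle, 123 CPM with the antagonist, 23.2 CPM with retinoic acid, 48.9 CPM in vitamin A-free medium, and 7.34 and 12.8 CPM at day 1. Day 1 was thus lowest for Ddit3, below retinoic acid. A further entry named Ddit3, lying inside the main gene on chromosome 10, held 0 UMIs in all libraries, so reads that fit both entries may have been lost by the counting. Atf5 (chr7:44812256-44816658) encodes a relative of ATF4 that is likewise controlled by translation. Its level was 133 CPM in vehicle, 363 CPM with the antagonist, 59.6 CPM with retinoic acid, 140.2 CPM in vitamin A-free medium, and 49.96 and 59.6 CPM at day 1. The retinoic acid library and the higher day-1 library did not differ in Atf5 beyond counting error.

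Nupr1 (chr7:126623249-126630861) encodes a small stress-induced nuclear protein that acts with transcription factors, and it had the widest range of the 8. Its level was 59.5 CPM in vehicle, 1152 CPM with the antagonist, 4.14 CPM with retinoic acid, 136.8 CPM in vitamin A-free medium, and 9.86 and 24.7 CPM at day 1. The day-1 libraries differed from each other in this gene far beyond counting error. Trib3 (chr2:152337422-152344032) encodes a pseudokinase that is induced by ATF4 and CHOP and restrains them. Its level was 29.7 CPM in vehicle, 61.1 CPM with the antagonist, 8.12 CPM with retinoic acid, 30.7 CPM in vitamin A-free medium, and 3.44 and 6.39 CPM at day 1. Vehicle and vitamin A-free medium did not differ in Trib3 beyond counting error.

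The remaining members are effectors. Chac1 (chr2:119351229-119354381) encodes an enzyme that breaks down glutathione. Its level was 13.4 CPM in vehicle, 45.3 CPM with the antagonist, 1.92 CPM with retinoic acid, 15.7 CPM in vitamin A-free medium, and 3.87 and 8.41 CPM at day 1. Asns (chr6:7675169-7693254) encodes asparagine synthetase. Its level was 169.5 CPM in vehicle, 490.0 CPM with the antagonist, 71.9 CPM with retinoic acid, 205.9 CPM in vitamin A-free medium, and 153.5 and 159.9 CPM at day 1. Unlike Ddit3 and Trib3, Asns at day 1 was close to day-4 vehicle. Sesn2 (chr4:132492032-132510501) encodes sestrin 2, a leucine sensor that restrains the growth kinase mTORC1. It stayed low, at 9.03 CPM in vehicle, 12.8 CPM with the antagonist, 4.62 CPM with retinoic acid, 10.7 CPM in vitamin A-free medium, and 7.45 and 8.85 CPM at day 1.

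**Figure D1:**
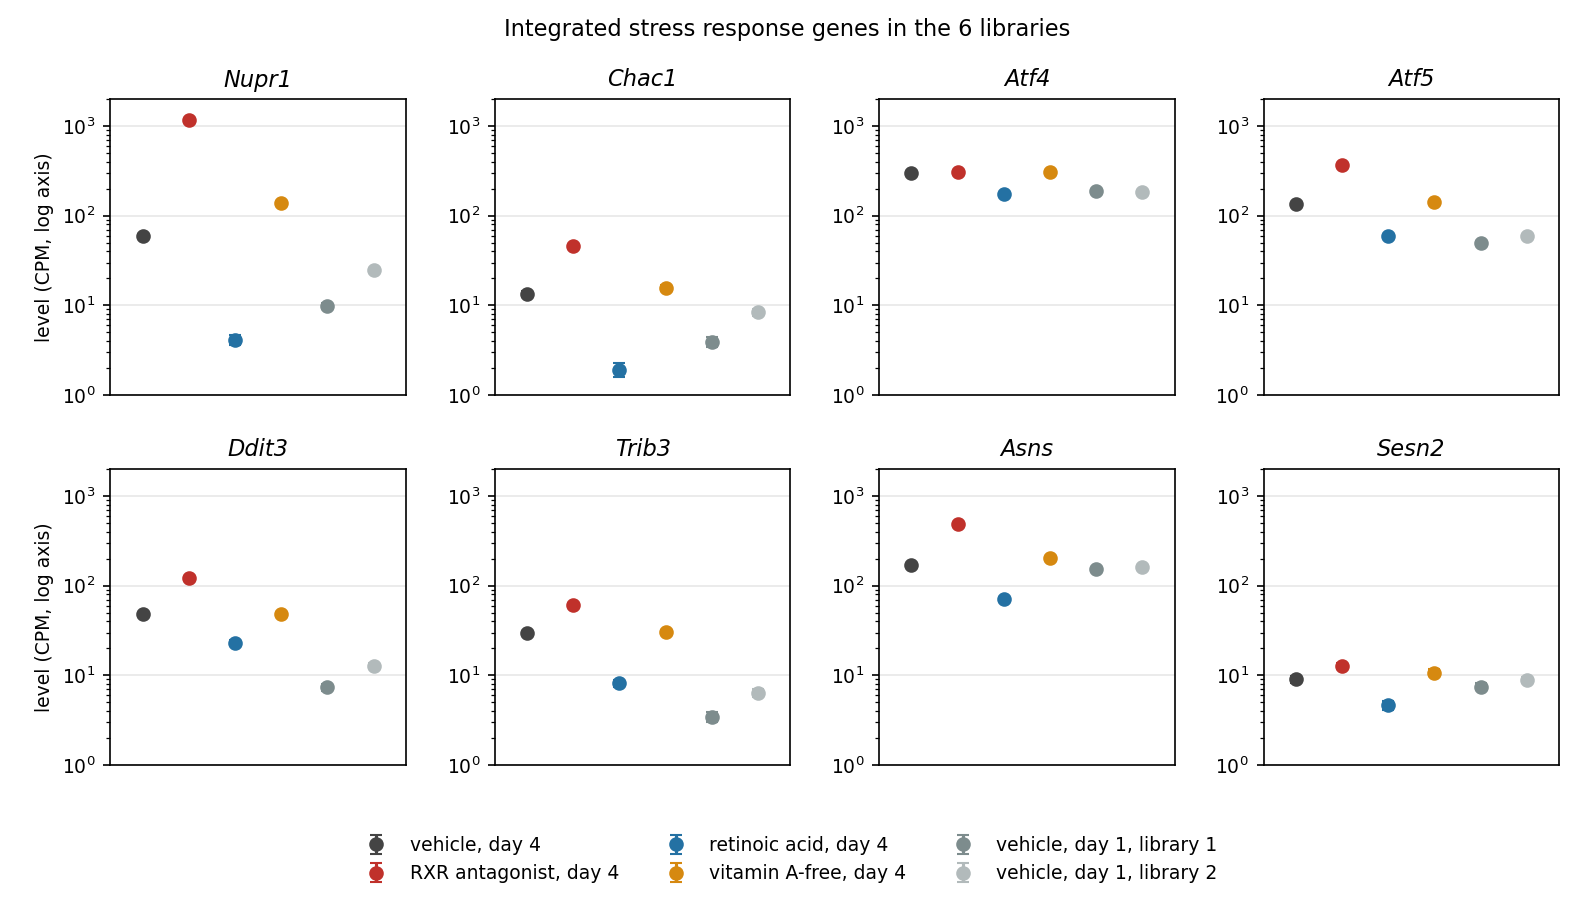
Level of each member in the 6 libraries, in CPM on a log axis; each point is 1 library and the bars are exact 95% Poisson intervals, mostly smaller than the point. The antagonist library is highest in all 8 panels, though for Atf4 not beyond counting error. Nupr1 spans 4.14 to 1152 CPM while Atf4 spans 175.0 to 304.0 CPM.

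The promoters of the members were read because ATF4 binds, with C/EBP proteins, to a composite site whose core is TGATGNAA. Windows of 300 bases, from 250 before to 50 after the RefSeq transcription start (GRCm38.p6), were available for all 8 genes, with 2 windows for Atf5. The core was found on either strand in 4 of the 9 windows, those of Chac1, Asns, Nupr1 and Trib3, and in 3.97% of 32851 promoters. The ER stress element was in 0 of the 9 windows and 0.119% of all promoters, and the cyclic AMP response element TGACGTCA in 0 of the 9 and 1.79% of all. Stretches around the core are shown 5′ to 3′ on the gene's strand, with the core in capitals, because their genes include the widest-ranging member.
Chac1, chr2:119351029-119351076, plus strand, core at -193 to -186: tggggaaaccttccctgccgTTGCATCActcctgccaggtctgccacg
Nupr1, chr7:126625553-126625600, minus strand, core at -110 to -103: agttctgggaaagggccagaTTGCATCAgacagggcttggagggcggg
Asns, chr6:7693210-7693252, minus strand, core at -23 to -16: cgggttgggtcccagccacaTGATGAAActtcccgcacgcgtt
Chac1 and Nupr1 carry the same 8 letters, TTGCATCA, which is the core read from the opposite strand. The Trib3 match, TTACATCA, lies past the RefSeq start at 15 to 22, but before the start of the GENCODE gene given above. The stretches of Nupr1 and Asns lie inside their GENCODE genes, so the 2 annotations place these starts differently. A match describes the letters and shows no binding.

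With the RXR antagonist, 6 of the 8 members were at least 1.5-fold higher than in vehicle on the log2(CPM + 5) scale, beside 14.6% of all 8387 genes compared, and 0 of 8 were lower, beside 15.4%. The members were chosen with earlier results of these data known. Here and below, the shares over all genes are therefore a scale for the counts and no independent check. Genes were compared where a library of the pair reached 10 CPM, so Sesn2 entered through the antagonist library alone. Nupr1 was 19.4-fold higher (interval 18.7 to 20.1) and Chac1 3.39-fold (3.11 to 3.71). Asns was 2.89-fold higher, Atf5 2.72-fold, Ddit3 2.55-fold and Trib3 2.06-fold. Sesn2 was at 1.42 times vehicle and Atf4 at 1.01 times (0.985 to 1.03), so Atf4 did not differ beyond counting error while most other members did. The median log2 difference of the members was 1.34, beside 0.01 over all genes.

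The direction with retinoic acid was the opposite. All 7 members that reached 10 CPM in either library were lower than in vehicle by at least 1.5-fold, beside 20.9% of 7976 genes, and 0 were higher, beside 6.03%. Each of those members was at or above 10 CPM in vehicle, while Nupr1, Chac1 and Trib3 were under it with retinoic acid and so entered through vehicle alone. Nupr1 was 14.4-fold lower (12.6 to 16.4), Chac1 6.98-fold (5.72 to 8.58) and Trib3 3.65-fold. Asns was 2.36-fold lower, Atf5 2.24-fold, Ddit3 2.07-fold and Atf4 1.72-fold. Sesn2, below the floor in both libraries, was at 4.62 against 9.03 CPM. The median over all genes was -0.27 in this comparison, and scaling by TMM factors moved it to 0.08 and the share of genes lower from 20.9% to 7.62%. Under that scaling Atf4 (log2 difference -0.38) and Ddit3 (-0.58) were no longer 1.5-fold lower, and with DESeq2 size factors they were at -0.33 and -0.53.

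In vitamin A-free medium Nupr1 was 2.30-fold higher than in vehicle (2.20 to 2.40), the only member of 8 past 1.5-fold, beside 1.34% of genes. Asns was at 1.21 times vehicle (1.18 to 1.25), Sesn2 at 1.19 and Chac1 at 1.17 times. For Atf4, Ddit3 and Trib3 the interval of the ratio included 1.

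Set directly against each other, the antagonist and retinoic acid libraries differed in all 8 members, each at least 1.5-fold higher with the antagonist, beside 31.6% of genes. Nupr1, Chac1, Trib3 and Sesn2 were under 10 CPM with retinoic acid and entered through the antagonist library alone, where they are high. Nupr1 was 278-fold higher (245.6 to 316.0), Chac1 23.7-fold, Trib3 7.52-fold, Asns 6.82-fold, Atf5 6.09-fold and Ddit3 5.29-fold. Atf4 was 1.74-fold higher, and under TMM factors its log2 difference of 0.45 was no longer 1.5-fold. These comparisons share libraries, so they are not independent of each other. TMM factors also turned the balance of all genes here, from 31.6% higher and 14.0% lower to 16.9% and 20.5%.

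**Figure D2:**
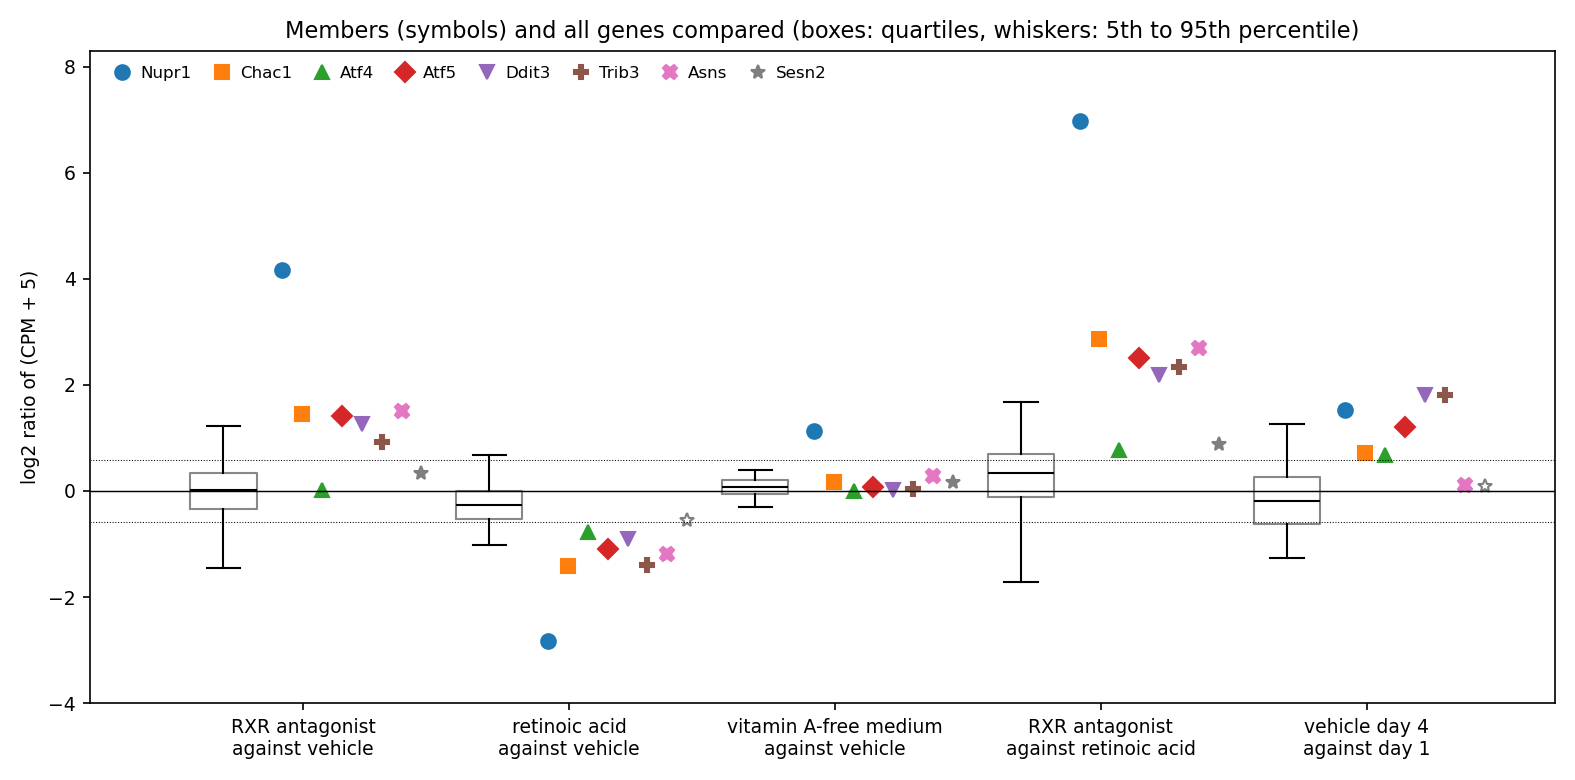
Log2 ratio of CPM + 5 for each member (symbols, open where neither library reached 10 CPM) beside the spread of all genes compared (box: quartiles and median; whiskers: 5th to 95th percentile); dotted lines mark 1.5-fold. Nupr1 is the member farthest from 0 in the 4 comparisons among day-4 libraries, at 4.17, -2.82, 1.14 and 6.98.

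Between day 1 and day 4 of vehicle culture, where day 4 has 1 library and day 1 has 2, 5 of the 8 members rose by edgeR's quasi-likelihood test with Benjamini-Hochberg adjustment over all 17592 genes tested, beside 17.3% of those genes, and 0 fell, beside 16.9%. The spread came from the 2 day-1 libraries alone, and the single day-4 library is assumed to vary like them. The labels do not say that the day-1 libraries are separate cultures, so the p-values and SEs may measure only technical spread. Trib3 rose most, with a log2 fold change of 2.77 ± 0.33 (SE; adjusted p = 0.0032 by edgeR). Ddit3 rose by 2.44 ± 0.30 (adjusted p = 0.0036 by edgeR), and Atf5 by 1.46 ± 0.16 (adjusted p = 0.0028 by edgeR). Atf4 rose by 0.88 ± 0.14 (adjusted p = 0.0072 by edgeR).

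Nupr1 rose by 1.96 ± 0.46 (adjusted p = 0.022 by edgeR), but the call was lost with DESeq2 (adjusted p = 0.15) and with no filter on low counts in edgeR (adjusted p = 0.072). Its log2 difference was 1.12 without the lower and 2.12 without the higher day-1 library. Chac1 did not pass, at 1.30 ± 0.41 (adjusted p = 0.053 by edgeR), and passed with DESeq2 (adjusted p = 0.0076) and in an edgeR fit on all 6 libraries (adjusted p = 0.047). Asns, at 0.29 ± 0.15 (adjusted p = 0.17 by edgeR), and Sesn2, at 0.33 ± 0.19 (adjusted p = 0.23 by edgeR), did not pass. By size alone, 6 of the 7 members at 10 CPM in a library were at least 1.5-fold higher at day 4, beside 14.7% of 8619 genes, and 0 lower, beside 26.8%. Chac1 and Trib3 were under 10 CPM in both day-1 libraries and entered that count through the day-4 library alone.

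The wider pathway was read from lists of genes by role. These lists, like the members, were chosen with earlier results of these data known, so their counts are no independent check. Of the genes that act downstream of ATF4 or CHOP outside amino acid metabolism, 8 of 9 measured were at least 1.5-fold higher with the RXR antagonist and 0 lower. This and the list counts that follow stand beside 14.6% of all 8387 genes higher and 15.4% lower. Ero1l, which oxidises protein disulfide isomerase in the endoplasmic reticulum, was at 2354 against 512 CPM in vehicle. Vldlr, a lipoprotein receptor, was at 48.1 against 8.09 CPM, and Eif4ebp1, a brake on cap-dependent translation, at 646 against 236 CPM. Vldlr and Tnfrsf10b (13.1 against 5.14 CPM), both counted as higher, were under 10 CPM in vehicle and entered through the antagonist library alone. Of 10 enzymes of amino acid synthesis and one-carbon metabolism 6 were higher and 1 lower. Aldh1l2, 1 of those higher, was at 16.2 against 2.74 CPM and also entered through the antagonist library alone. Psph and Phgdh, of serine synthesis, were at 234 against 60.2 CPM and 277.5 against 91.0 CPM, while Aldh18a1, of proline synthesis, was lower at 62.9 against 169 CPM. Of 8 amino acid transporters 3 were higher, led by the cystine carrier Slc7a11 at 110.5 against 6.47 CPM. Slc7a11 and Slc6a9 (24.4 against 5.62 CPM) likewise entered through the antagonist library alone. Of the 12 tRNA synthetases listed under ATF4 5 were higher, against 1 of the 8 other cytosolic synthetases. Of 5 transcription factors that partner ATF4, Jdp2 was higher (20.0 against 0.36 CPM) and Cebpd lower (7.24 against 14.1 CPM). Jdp2 entered through the antagonist library alone and Cebpd through vehicle alone. Atf3 was at 109 against 85.4 CPM, short of 1.5-fold. Of 10 genes of eIF2, eIF2B and the eIF2 phosphatase 1 was higher and 0 lower, and of 2 measured eIF2 kinases 0 were either.

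Lists of neighbouring stress pathways were counted in the same way, beside the same 14.6% of genes higher and 15.4% lower, with no test between lists. Of 16 chaperones and genes of the IRE1 or ATF6 branch of the unfolded protein response 0 were higher and 1 lower (0 lower under TMM factors), and the chaperone Hspa5 stood at 1330 against 945 CPM. Of 6 mitochondrial chaperones and proteases 2 were higher, Oma1 and Lonp1. Of 6 cytosolic heat shock genes 2 were higher and Hsph1 was lower. The higher ones, Hspa1a (21.6 against 2.46 CPM) and Hspa1b (16.0 against 2.82 CPM), entered through the antagonist library alone. Of 4 measured paralogs of members 0 were higher, and Sesn1 was lower at 6.56 against 19.4 CPM. The medians were 0.98 for the other ATF4 or CHOP targets, 0.83 for amino acid synthesis, 0.51 for the synthetases under ATF4 and -0.11 for the endoplasmic reticulum list, beside 0.01 over all genes.

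With retinoic acid the same lists lay below vehicle, along with lists outside the ATF4 arm. Over all genes compared, 20.9% were lower and 6.03% higher. Of the other ATF4 or CHOP targets, 6 of 7 were lower, including Stc2 at 2.48 against 35.3 CPM and Ddit4 at 10.7 against 69.4 CPM. Of the amino acid synthesis genes 7 of 9 were lower, with Pck2 at 15.5 against 62.6 CPM and Mthfd2 at 22.6 against 85.7 CPM. Of the transporters 5 of 6 and of the synthetases under ATF4 8 of 12 were lower. Stc2, Gdf15, Adm2, Mthfd1l, Slc7a5 and Slc1a4, all counted as lower, were under 10 CPM with retinoic acid and entered through vehicle alone. Of the endoplasmic reticulum list 7 of 16, and of the mitochondrial list 4 of 6, were lower as well. Under TMM factors, with 7.62% of all genes lower, 6 of 7 other targets and 7 of 9 amino acid synthesis genes were still lower, but 2 of 6 transporters (1 higher), 0 of 12 synthetases under ATF4, 0 of 17 endoplasmic reticulum genes and 1 of 6 mitochondrial genes (1 higher) were. DESeq2 size factors gave the same numbers lower. Atf3, a transcription factor that partners ATF4, was at 17.0 against 85.4 CPM. The medians were -1.76 for the other targets, -1.15 for amino acid synthesis and -0.55 for the endoplasmic reticulum list, beside -0.27 over all genes. In vitamin A-free medium 1 of 9 amino acid synthesis genes (Phgdh, 142.8 against 91.0 CPM), 1 of 8 other targets (Stc2, 56.4 against 35.3 CPM) and 1 of 4 paralogs (Sesn3, 21.4 against 12.3 CPM) were higher, and 0 genes of any list were lower. Over all genes 1.34% were higher and 1.34% lower in vitamin A-free medium. Under TMM factors 0 genes of these 3 lists were higher.

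**Figure D3:**
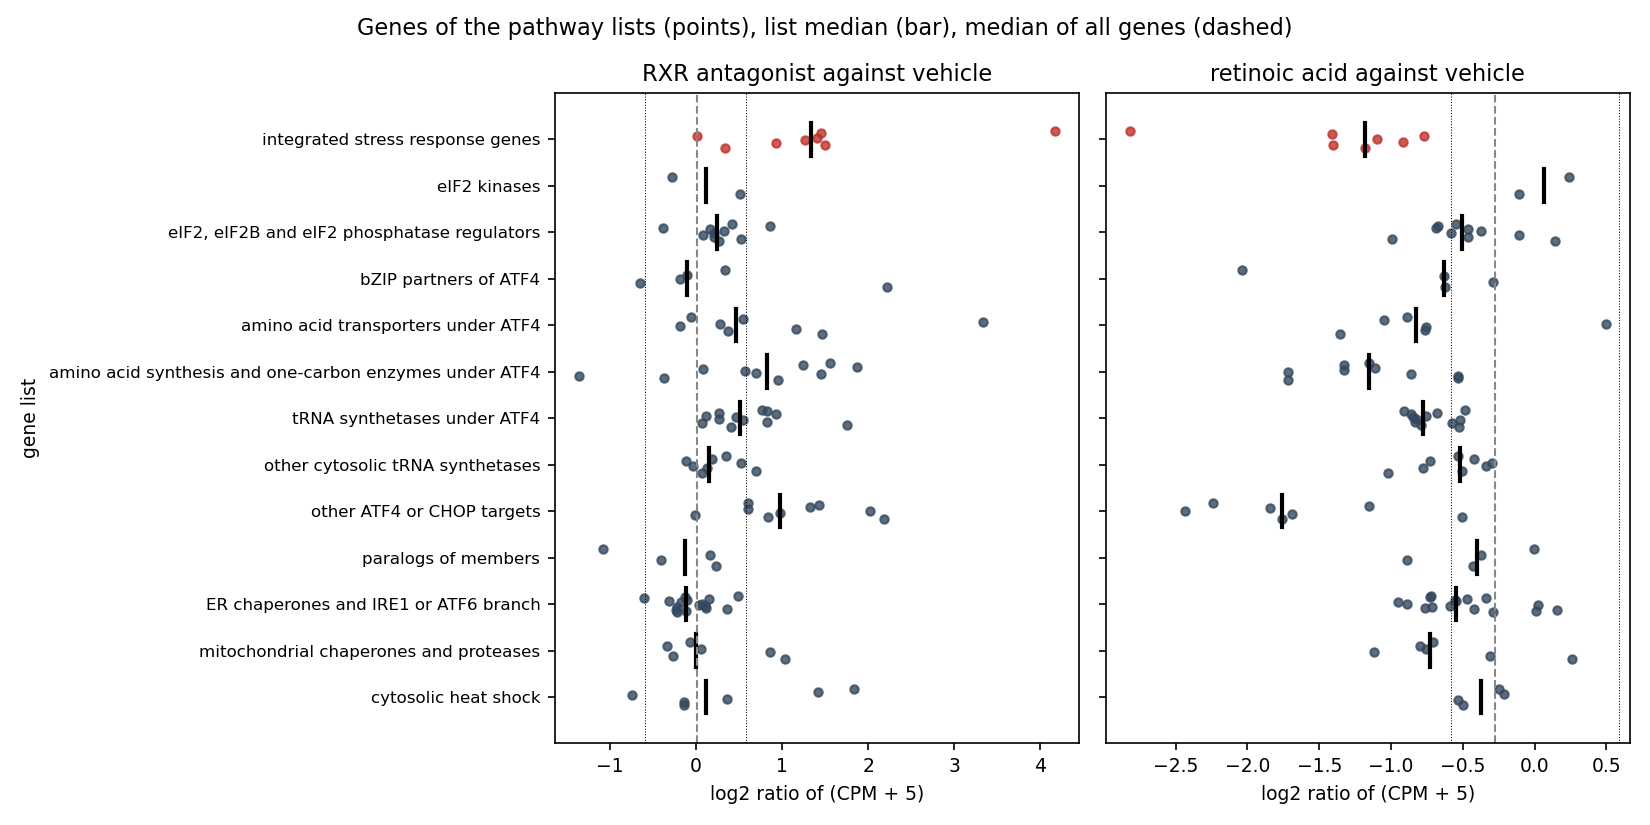
Log2 ratio of CPM + 5 for the genes of each list (points), the list median (bar) and the median of all genes (dashed line), for the RXR antagonist and retinoic acid against vehicle; dotted lines mark 1.5-fold. The members' median is 1.34 in the antagonist panel and -1.18 in the retinoic acid panel.

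From day 1 to day 4 the lists did not move as a block. By edgeR 7 of 9 other ATF4 or CHOP targets rose and 0 fell, and 4 of 4 paralogs rose, beside 17.3% of genes that rose and 16.9% that fell. Of 12 amino acid synthesis genes 5 rose, among them Cth at a log2 fold change of 2.52, and 2 fell. Of 12 synthetases under ATF4 1 rose and 2 fell, and of the 8 others 1 rose and 5 fell. Of 10 genes of eIF2, eIF2B and the eIF2 phosphatase 1 rose, Ppp1r15a, which encodes the stress-induced phosphatase subunit GADD34, and 5 fell. Of 18 endoplasmic reticulum genes 7 rose and 2 fell.

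Because a library's level mixes the share of cells with a gene and the amount in each, cells were thinned to 5000 UMIs, leaving out shallower cells. Nupr1 was then detected in 12.6% of vehicle cells, 81.5% with the antagonist, 1.49% with retinoic acid, 19.1% in vitamin A-free medium, and 2.72% and 5.34% at day 1. Where detected, it held a mean of 2.68 UMIs in vehicle and 7.22 with the antagonist. Both the share of cells and the amount in positive cells were thus higher with the antagonist. Asns was detected in 45.6% of vehicle, 83.9% of antagonist and 22.9% of retinoic acid cells, and Atf5 in 38.2%, 72.2% and 21.9%. Ddit3 went from 17.0% of vehicle to 27.2% of antagonist cells, with a mean of 1.45 and 2.28 UMIs in positive cells. For Atf4 the share was lower with the antagonist, at 68.9% against 74.7%, although the level was not. No cell type of these organoids is known to lack the members, so the share of detection that free RNA gives was not measured for any of them. Among clusters with at least 50 vehicle cells the share with Nupr1 ran from 2.52% (cluster 3, median depth 11781 UMIs) to 21.6% (cluster 5, 14114 UMIs), and among those with at least 50 antagonist cells from 76.3% (cluster 7, 14249 UMIs) to 98.1% (cluster 4, 10078 UMIs); the clusters are described further on. Without thinning, Nupr1 was detected in 16.8% of vehicle, 90.9% of antagonist and 2.65% of retinoic acid cells.

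Cells with at least 4 of the 8 members made up 15.3% of vehicle, 55.7% of antagonist, 1.82% of retinoic acid and 17.4% of vitamin A-free cells, and 1.81% and 4.07% at day 1. The mean number of members per cell was 2.10, 3.75, 1.21, 2.19, 1.46 and 1.57 in the same order. Cells with 0 members were 24.0% of the retinoic acid library and 1.48% of the antagonist library.

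**Figure D4:**
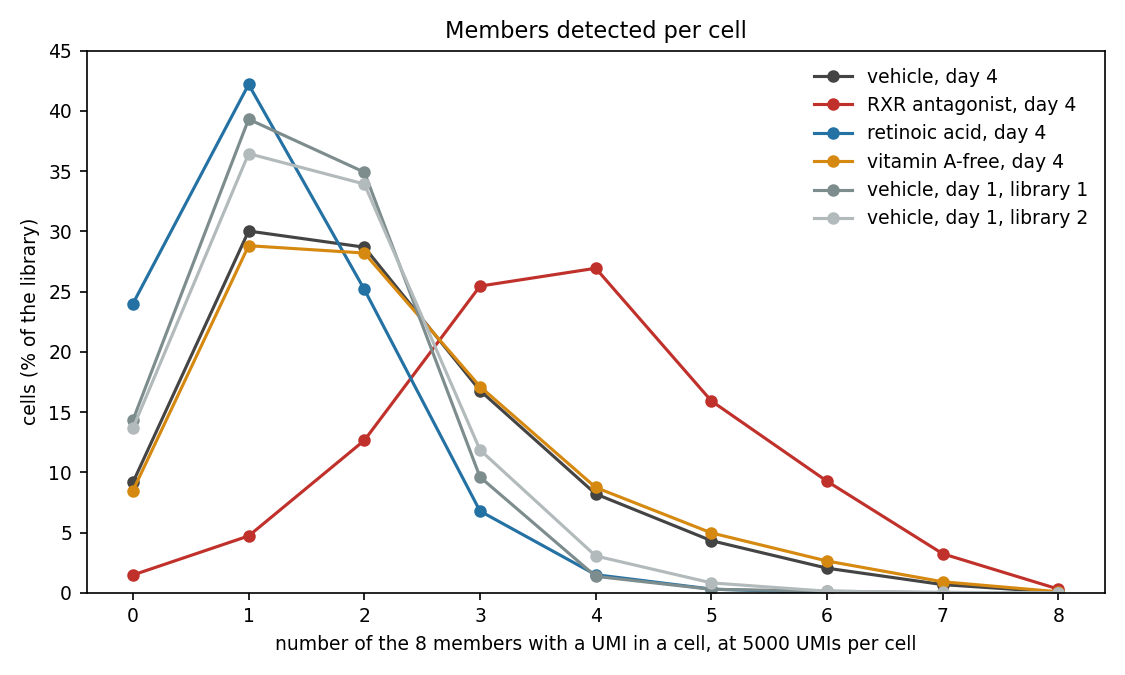
Share of the cells of each library (percent) by the number of members detected in a cell, with cells thinned to 5000 UMIs. The antagonist curve peaks at 4 members with 26.9% of cells, and the other 5 curves peak at 1 member.

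Members also tended to be found in the same cells, though not in every library or cluster. In vehicle, all 27 pairs with at least 20 cells expected were seen together more often than the product of their shares, with a median ratio of 1.56. The highest was Chac1 with Trib3, found together in 85 cells where the product gives 26.9. In vitamin A-free medium all 27 pairs lay above the product (median 1.54), again led by Chac1 with Trib3 at 3.50. With the antagonist all 28 pairs did, with a median of 1.09. The lowest there was Atf4 with Atf5 at 1.02. Atf5 with Ddit3 lay at 1.05, while the Pearson correlation of their thinned counts was -0.034. A ratio cannot exceed 1 over the larger share of its pair. With the antagonist the shares reached 81.5% for Nupr1 and 83.9% for Asns. The medians of libraries thus do not compare how closely members go together. With retinoic acid 9 of 15 pairs lay above the product, with a median of 1.03. In the day-1 libraries 13 of 16 and 18 of 18 pairs did, with medians of 1.09 and 1.16. Within day-4 vehicle cells of cluster 1 alone, described next, all 21 pairs lay above the product (median 1.33). In day-1 cells of cluster 19, led by Cenpf, 3 of 7 and 1 of 5 pairs did in the libraries (medians 0.987 and 0.963). In those of cluster 12, led by Acta1, 4 of 5 and 16 of 16 did. Among antagonist cells, 27 of 27 pairs in cluster 7 and 23 of 25 in cluster 8 lay above the product. Ratios of this kind are a description across cells of 1 library, and cells are not replicates.

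Cells of all libraries were clustered together without the members and the pathway genes, giving 22 clusters. In 19 of them 1 library gave more than 50% of the cells, and clusters 15 to 18 held retinoic acid cells alone, where the cluster and the library cannot be told apart. Clusters 0 and 5 were stem-like, led by Olfm4 with Lgr5 and Smoc2, and held cells of the vehicle, retinoic acid and vitamin A-free libraries but only 10 antagonist cells. The antagonist cells fell mainly in cluster 7, led by Ly6d and Sprr2f, and cluster 8, whose highest-ranking gene by fold was Nupr1 itself. Nupr1 was alike in the antagonist cells of both, at 1153 and 1104 CPM. Other members were not: Ddit3 was at 184 CPM in cluster 7 and 49.3 in cluster 8, Chac1 at 60.7 and 24.1, and Trib3 at 78.3 and 39.3. Atf5 ran the other way, at 297.5 and 459 CPM.

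In vehicle, Asns was highest in the stem-like clusters, at 269.9 and 341 CPM, and lowest in cluster 3 (led by Ctrb1 and Apoc3), at 73.2 CPM. Ddit3 was low in the stem-like clusters, at 12.4 and 24.5 CPM, and at 64.2 CPM in cluster 3. Nupr1 was at 111 CPM in cluster 1 (led by Rbp7) and 10.3 CPM in cluster 3. In vitamin A-free cells Nupr1 was at 302 CPM in cluster 1 and 179 CPM in cluster 3. With retinoic acid, clusters 15 and 16 held 2 and 3 UMIs of Nupr1 among 1657 and 1863 cells, and cluster 17 held 0, which allows up to 0.546 CPM. Stem-like retinoic acid cells held 12.8 and 15.5 CPM. At day 1, Nupr1 was highest in cluster 9 (led by Ang4), at 199.5 and 320.5 CPM in the libraries, and Sesn2 in the enteroendocrine-like cluster 2, at 44.3 and 30.8 CPM.

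**Figure D5:**
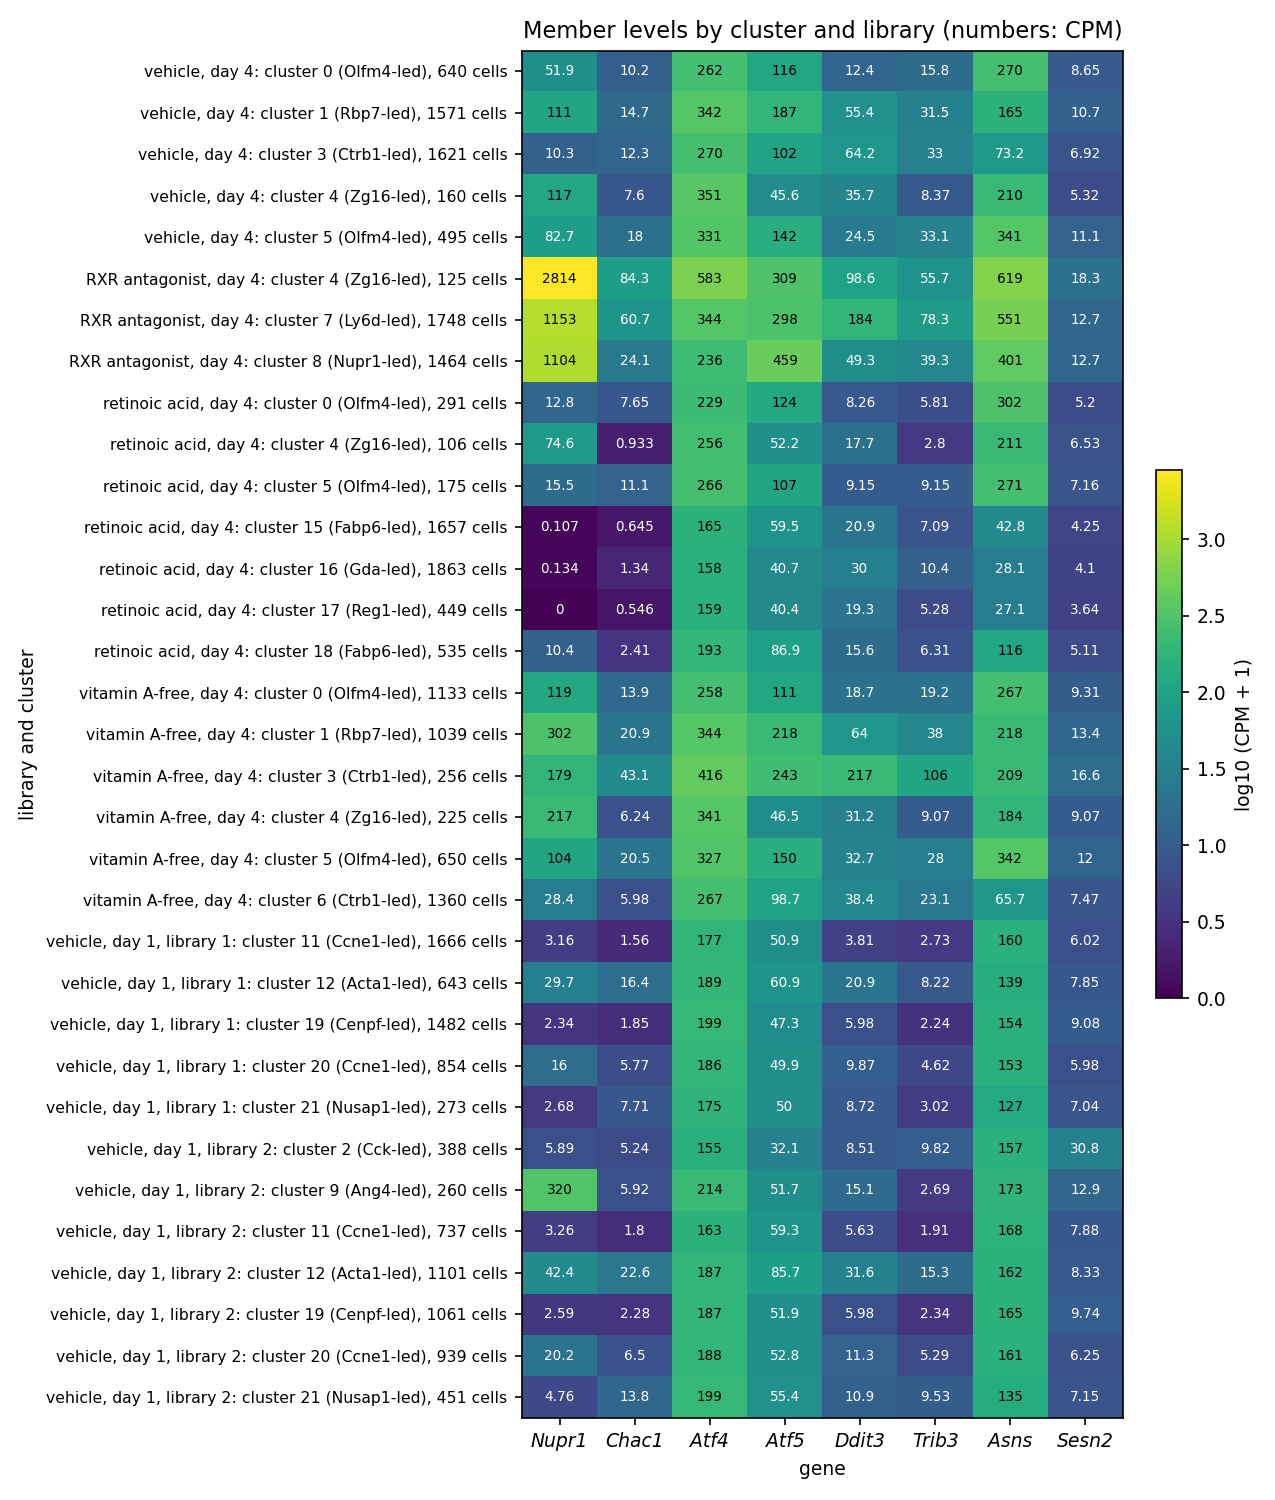
Member levels (CPM, printed in each cell, and coloured as log10 of CPM + 1) in each cluster and library with at least 150 cells, and in cluster 4 of each library with at least 50 cells. Nupr1 is above 1000 CPM in the 3 antagonist rows, and clusters 15, 16 and 17 of the retinoic acid library hold 2, 3 and 0 UMIs of it.

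Within the stem-like clusters, 466 retinoic acid cells and 1135 vehicle cells could be compared. Of 7 members measured there 3 were at least 1.5-fold lower with retinoic acid, beside 2.97% of genes, and 0 were higher, beside 0.858%. Nupr1 was at 14.0 against 67.7 CPM (4.84-fold lower), Trib3 at 7.26 against 24.7 CPM (3.40-fold) and Ddit3 at 8.65 against 18.6 CPM (2.15-fold). Trib3, Ddit3 and Chac1 were under 10 CPM with retinoic acid there and entered through vehicle alone, where they are high. Asns, at 289 against 306 CPM, and Atf4, at 245 against 298 CPM, differed less there than in whole libraries. Of 8 other ATF4 or CHOP targets 6 were lower, among them Ero1l (97.2 against 392 CPM) and Stc2 (17.3 against 80.8 CPM), while 0 of 12 synthetases under ATF4 were. Summed enterocyte markers were 8446 CPM in these retinoic acid cells and 2127 CPM in the vehicle cells, and their part in the result was not tested. In vitamin A-free stem-like cells Nupr1 was at 113 against 67.7 CPM in vehicle (1.66-fold higher), the single member of 8 past 1.5-fold, beside 0.594% of genes, and 0 were lower, beside 0.333%. With finer clustering (resolution 2.0) 0 of 8 passed, with Nupr1 at 95.7 against 64.6 CPM.

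Cluster 4, led by Zg16, Clca1 and Defa30 and carrying both goblet and Paneth markers, was the only cluster with enough antagonist and vehicle cells to compare, 125 and 160. All 8 members were at least 1.5-fold higher there with the antagonist, beside 12.6% of genes, and 0 were lower, beside 29.7%. Chac1, Trib3 and Sesn2 were below 10 CPM in vehicle there and entered through the antagonist cells alone. Nupr1 was at 2814 against 117 CPM, Chac1 at 84.3 against 7.60 CPM and Atf5 at 309 against 45.6 CPM. Trib3 was at 55.7 against 8.37 CPM, Asns at 619 against 209.9 CPM, Ddit3 at 98.6 against 35.7 CPM and Sesn2 at 18.3 against 5.32 CPM. Atf4, level in whole libraries, was at 583 against 351 CPM here. The makeup of the cluster differed too: summed goblet markers were 141119 against 39856 CPM and summed Paneth markers 9010 against 34513 CPM, and their part in the result was not tested. In the same cluster 2 of 5 members measured were lower with retinoic acid, beside 7.26% of genes, and 0 higher, beside 9.31%: Nupr1 at 74.6 CPM and Ddit3 at 17.7 CPM. With clusters 4 and 9 pooled, Nupr1 no longer passed (log2 difference -0.53, and -0.51 and -0.39 at resolutions 0.5 and 2.0). In vitamin A-free medium 1 of 5 was higher, beside 3.18%, and 0 lower, beside 2.75%: Nupr1 at 217 CPM.

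For each member the genes with the most similar course over the 6 libraries were sought among 4413 genes at 50 CPM or more in a library, by Pearson's r of log2(CPM + 5). App was nearest to Nupr1 (r = 0.997), Rragc to Chac1 (0.998), Qars to Atf4 (0.995) and Skap2 to Atf5 (0.997). Med13 was nearest to Ddit3 (0.995), Asl to Trib3 (0.997), Phf10 to Asns (0.999) and Tpd52 to Sesn2 (0.991). With 6 libraries such values are common: 48 to 118 genes exceeded 0.95 for each member. Among the members, r ran from 0.644 for Ddit3 with Sesn2 to 0.992 for Nupr1 with Chac1.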

How the data were processed

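Whole-number UMI counts per gene and cell were deposited by the authors. Per the submitters' processing notes, bcl2fastq 2.17, Cell Ranger 3.1.0 and GRCm38 were used, with no role stated for each, and per the labels' protocols dead cells and debris were sorted out. From these counts, barcodes with at least 500 genes, 1000 UMIs and at most 20% mitochondrial UMIs were kept, a filter that removed none, and the highest Scrublet scores were removed at 0.8% per 1000 barcodes (scanpy 1.11.5). Counts were summed per library and scaled to CPM. Ratios carry 95% counting intervals, calls by size used log2(CPM + 5) at 1.5-fold, and UMIs give counting error only. Day 4 against day 1 was tested with edgeR 4.0.16 (quasi-likelihood, TMM, filterByExpr, threshold 0.05), which was tested on simulated data, with DESeq2 1.42.0 as an alternative. Clusters came from Leiden at resolution 1.0 over 30 principal components of 2000 variable genes. Named genes were the 8 members, up to 4 genes of each of 12 pathway lists with the largest log2 ratio in a comparison, the likeness lists' 5 nearest genes, and cluster markers. Members and lists were chosen with earlier results of these data known. Gene positions are from GENCODE vM21 and promoters from RefSeq.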

Additional observations from a re-analysis of the deposited data

How the results depend on the processing

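Of 227 recomputed member differences that were at least 1.5-fold, 227 kept their direction and 220 stayed past 1.5-fold, over TMM, DESeq2 or reduced totals, another pseudocount, other floors, all barcodes, equally weighted cells and left-out day-1 libraries. The exceptions were Atf4 and Ddit3 with retinoic acid and Atf4 between antagonist and retinoic acid, under TMM or DESeq2 factors, and Chac1 from day 1 to day 4 without day-1 library 1 (0.45). With a floor of 50 CPM fewer genes were compared, and 4 of 4 members were lower with retinoic acid, beside 21.3% of genes at that floor, and 3 of 4 higher at day 4 than at day 1, beside 18.1%. At that floor Nupr1 entered both counts through the day-4 vehicle library alone, where it is high. Without a filter on low counts, edgeR called 1839 genes lower at day 4 in place of 2975. Leaving out either day-1 library gave 5 to 6 members higher by size and 0 lower. The shares of genes higher and lower were 6.03% and 20.9% for retinoic acid against vehicle, 14.3% and 7.62% with TMM factors, and 16.1% and 6.69% with DESeq2 factors. For day 4 against day 1 they were 14.7% and 26.8%, and 19.6% and 19.1% with TMM factors. No paired analysis was possible because the sources tie no mouse to a library and each day-4 condition has 1 library. Single libraries at day 4 limit every difference among treatments, whatever their depth.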
